A study of Mus musculus with 24 samples.

Results

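White fat from the epididymal pad (eWAT), a visceral depot of male mice, was compared in control animals between circadian time (CT) 19, late in the subjective night, and CT1, at subjective dawn. The comparison used 6 of the 24 arrays of the series, 3 mice at each time, and every gene with a probe set of its own symbol, taken at its brightest probe set. Of 22180 such genes, 15526 passed a filter on low signal and were tested. The series covered both genotypes below at CT1, CT7, CT13 and CT19, with 3 mice in each of the 8 groups and 1 array per mouse. Control mice (CON) were Syt10-Cre/Cre x Bmal1 +/-, so they carried Cre driven by Syt10 and a single intact copy of Bmal1. Mutant mice (MUT) were Syt10-Cre/Cre x Bmal1 flox/- and had no working clock in the SCN (suprachiasmatic nucleus), which sets daily time for the body from the hypothalamus. All mice were held in a light-dark cycle for 2 weeks and then in constant darkness, and were killed on the second day at 6-h intervals, with CT1 first. The CT1 mice were therefore killed 18 h before the CT19 mice, and the step from CT19 to CT1 closes the cycle rather than following 1 set of mice through dawn. Ages are not given in the labels.

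In the circadian clock, BMAL1 (encoded by Arntl) and CLOCK activate genes through E-box sequences, among them the Per, Cry, Nr1d (REV-ERB) and Bhlhe40 and Bhlhe41 (DEC) genes, whose proteins feed back as repressors. REV-ERB proteins repress Arntl, Npas2 and Nfil3 through a sequence that ROR proteins activate. White fat stores and releases fatty acids with the feeding cycle. Mice eat mostly during the subjective night, so the night end of the step lies in the feeding phase and the dawn end in the resting phase.

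The labels disagree on tissue, since the titles and treatment text name eWAT while the source field names mediobasal hypothalamus. The 10 adipocyte markers had a median percentile of 99.4 among the signals of the tested genes, and the 8 tested hypothalamus and neuron markers a median percentile of 20.1. Array medians of the 6 arrays lay between 7.86 and 7.88 (log2 signal), and the arrays correlated at 0.987 to 0.995. The number of arrays limits the precision. Log2 differences are CT1 minus CT19 with the SE of a limma model over all 24 arrays, n = 3 mice per group, and adjusted p-values are from limma's moderated test, two-sided, with Benjamini-Hochberg adjustment over all 15526 genes.

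Between CT19 and CT1, 289 of 15526 genes changed at an adjusted p under 0.05, which is 1.86% of those tested. Of these, 184 (1.19%) were higher at CT1 and 105 (0.676%) lower. Most changes were small: the median rise was 0.38 (1.30-fold) and the median fall was 1.37-fold, and 50 genes (0.322%) combined the threshold with at least 1.5-fold, 22 of them higher and 28 lower. At least 2-fold, 2 genes rose (Nr1d1 and Nr1d2) and 5 fell (Angptl8, Bhlhe40, Ppp1r3c, Ppp1r3b and Bhlhe41), so the deepest changes were clock repressors and genes of lipoprotein and glycogen handling. No called gene passed from under the 30th percentile of signal to above the median of all genes, or back. The 3 CT1 arrays lay wholly above the 3 CT19 arrays in 1973 genes (12.7%) and wholly below in 1705 (11.0%), and in 183 of the 184 called rises and in all 105 called falls. The median difference of all genes was 0.01. The counts depended on single mice. Without CT19 replicate 2 there were 17 rises and 27 falls, and without CT1 replicate 3 26 and 20. Without CT1 replicate 1 there were 60 and 42, and without CT19 replicate 1 79 and 38. The counts were 278 and 107 without CT19 replicate 3, and 147 and 82 without CT1 replicate 2. Of the 289 genes, 30 passed in all 6 of these omissions.

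**Figure D1:**
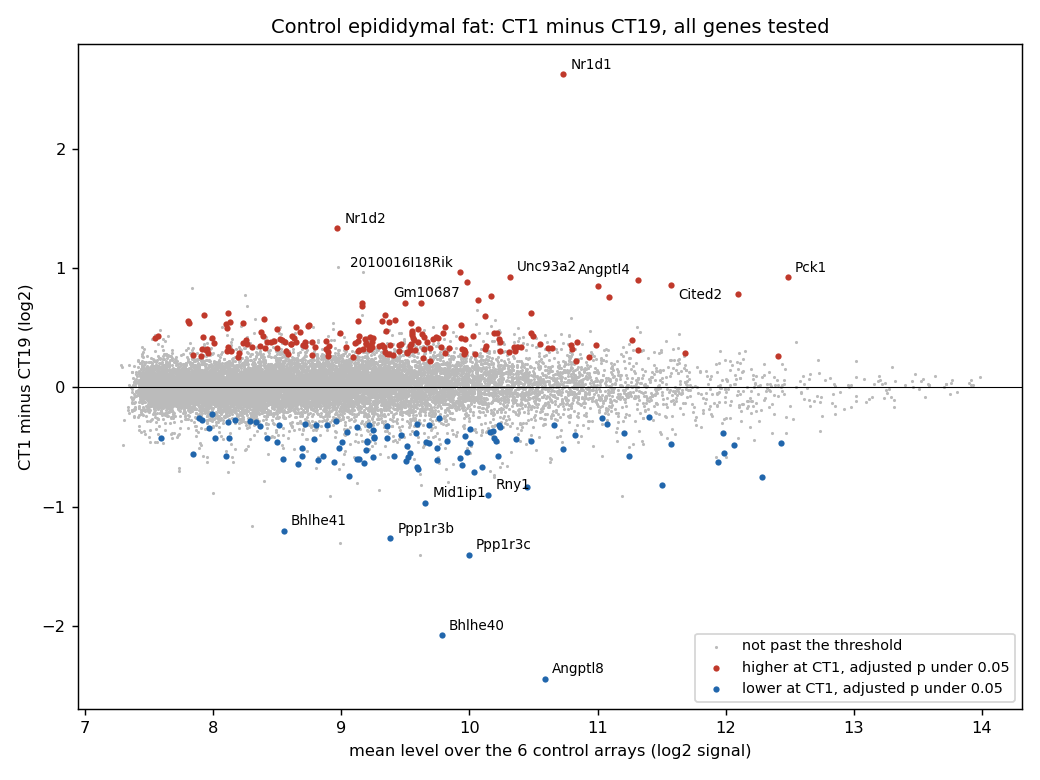
Each point is 1 of the 15526 genes tested in control fat. The horizontal axis gives its mean log2 signal over the 6 arrays, the vertical axis CT1 minus CT19 in log2 units, red marks the 184 genes called higher and blue the 105 called lower at an adjusted p under 0.05. Nr1d1 (2.62) and Angptl8 (-2.44) lie farthest from 0.

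Clock repressors moved in opposite directions. Of 9 tested, 2 rose and 3 fell. Over all genes 1.19% rose and 0.676% fell, shares that also stand against the list counts below. Nr1d1, which encodes REV-ERB alpha, had log2 signals of 9.54, 9.12 and 9.61 at CT19 and of 11.81, 12.13 and 12.19 at CT1. All 3 CT1 arrays were above every CT19 array, by 2.62 ± 0.17 (6.16-fold, adjusted p = 3.47e-09), the largest difference of any called gene. Nr1d2, which encodes REV-ERB beta, went from 8.26, 7.97 and 8.68 to 9.48, 9.67 and 9.75, again without overlap, and rose by 1.33 ± 0.19 (2.52-fold, adjusted p = 0.000847). Bhlhe40, which encodes the E-box binding repressor DEC1, went the other way, from 10.80, 10.93 and 10.74 to 8.73, 8.71 and 8.80. Its spread within a group was small, and it fell by 2.08 ± 0.22 on the log2 scale (4.22-fold, adjusted p = 1.66e-05). Bhlhe41, for the related DEC2, went from 9.45, 9.40 and 8.61 to 7.70, 7.96 and 8.19. CT19 replicate 3 was the lowest of its group and nearest to the CT1 arrays, and the difference was -1.20 ± 0.24 (2.30-fold, adjusted p = 0.0106). Cry1, the cryptochrome that represses BMAL1 and CLOCK directly, went from 8.83, 9.06 and 9.06 to 8.24, 8.44 and 8.33. The groups did not overlap, and it fell by 0.65 ± 0.09 on the log2 scale (1.56-fold, adjusted p = 0.000847).

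Per1 (0.22 ± 0.14), Per3 (0.29 ± 0.16), Cry2 (-0.12 ± 0.07) and Ciart (-0.10 ± 0.07) did not pass, with adjusted p-values of 0.461, 0.371, 0.366 and 0.515, and their CT1 and CT19 arrays overlapped. Per2 has no probe set of its own symbol and was not analysed here. Of the repressors, only the call of Bhlhe41 ended when single arrays were left out, without CT19 replicate 1 (adjusted p = 0.0591), CT19 replicate 2 (0.0752) or CT1 replicate 1 (0.0576).

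**Figure D2:**
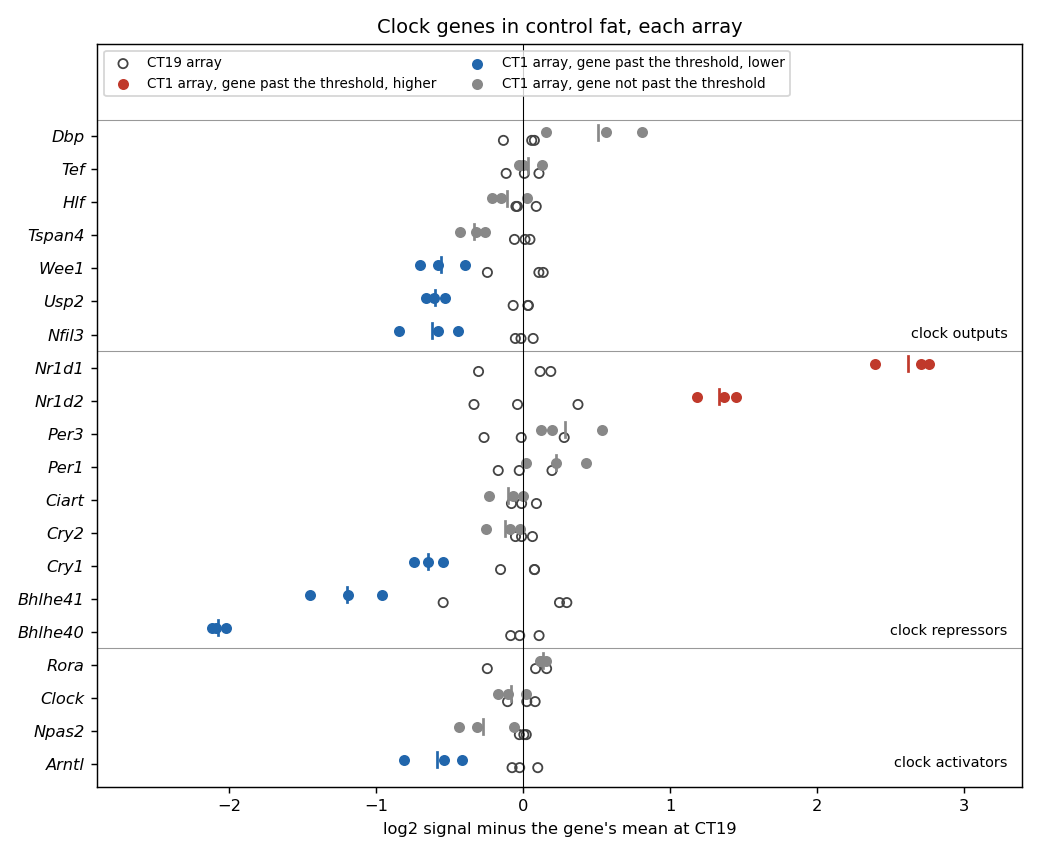
Each circle is 1 control array, plotted as the log2 signal minus the gene's own mean at CT19 (horizontal axis) for the 20 tested clock genes (vertical axis). Open circles are CT19, filled circles CT1, and short bars the CT1 means. Red and blue mark genes past the threshold. Nr1d1 and Nr1d2 lie to the right of their CT19 arrays, Bhlhe40, Bhlhe41 and Cry1 to the left, and Per1 and Per3 overlap them.

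Among 4 clock activators 1 changed, against 1.86% of all genes. Arntl fell from 9.52, 9.64 and 9.46 to 9.13, 8.9996 and 8.73, a difference of -0.59 ± 0.14 (1.503-fold, adjusted p = 0.0355). The groups did not overlap, but the call held in only 1 of the 6 omissions: the adjusted p was 0.0873 without CT19 replicate 1, 0.145 without CT19 replicate 2, 0.0501, 0.0629 and 0.21 without CT1 replicates 1, 2 and 3. Npas2, a paralogue of Clock, differed by -0.27 ± 0.17, Clock by -0.09 ± 0.09 and Rora, an activator of Arntl, by 0.13 ± 0.09, and none of them passed (adjusted p = 0.451, 0.677 and 0.468). Arntl is the floxed gene, but the deletion was made in the SCN, so its signal in fat does not check the genotype labels.

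Of 7 clock output genes, 3 fell and none rose, against 0.676% and 1.19% of all genes. Nfil3, which encodes a repressor at D-box sequences, went from 9.20, 9.24 and 9.33 to 8.82, 8.41 and 8.68 (-0.62 ± 0.10, adjusted p = 0.00347). Usp2, for a deubiquitinating enzyme, went from 9.37, 9.47 and 9.47 to 8.91, 8.83 and 8.78 (-0.60 ± 0.10, adjusted p = 0.00404). Both pairs of groups were apart, and both genes passed in all 6 omissions. Wee1, for a kinase that holds back entry into mitosis, fell by 0.56 ± 0.13 on the log2 scale (adjusted p = 0.0258), and its highest CT1 array at 7.73 lay just under its lowest CT19 array at 7.88. Its call ended without CT19 replicate 1 (0.101), CT19 replicate 3 (0.0715) and each CT1 replicate (0.11, 0.0612 and 0.0514). Dbp, the D-box activator, had CT1 arrays of 8.68, 9.09 and 9.33 above CT19 arrays of 8.58, 8.39 and 8.60, but the spread at CT1 was wide and 0.51 ± 0.17 did not pass (adjusted p = 0.116). Tef (0.03 ± 0.11), Hlf (-0.11 ± 0.08) and Tspan4 (-0.34 ± 0.10, adjusted p = 0.0687) were not called.

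Bases before the start sites of clock genes that changed are shown because these genes are known to be driven through E-boxes or the REV-ERB and ROR element. They are RefSeq sequences (GRCm38.p6), 250 bases ending just before the annotated start, in the direction of transcription, with capitals at each searched motif. Nr1d1 (chr11:98775378-98775627, minus strand) and Nr1d2 (chr14:18239107-18239356, minus strand) rose, and Bhlhe41 (chr6:145865421-145865670, minus strand), Cry1 (chr10:85185055-85185304, minus strand) and Nfil3 (chr13:52981040-52981289, minus strand) fell. Bhlhe40 is named only. Cry1 and Nfil3, and Ppp1r3c below, were picked for display after their values were seen.
Nr1d1: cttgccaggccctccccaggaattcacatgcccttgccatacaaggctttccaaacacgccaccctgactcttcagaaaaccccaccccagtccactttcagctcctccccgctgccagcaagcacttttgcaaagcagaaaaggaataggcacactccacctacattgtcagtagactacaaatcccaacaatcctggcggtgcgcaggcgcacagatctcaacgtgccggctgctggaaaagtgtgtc
Nr1d2: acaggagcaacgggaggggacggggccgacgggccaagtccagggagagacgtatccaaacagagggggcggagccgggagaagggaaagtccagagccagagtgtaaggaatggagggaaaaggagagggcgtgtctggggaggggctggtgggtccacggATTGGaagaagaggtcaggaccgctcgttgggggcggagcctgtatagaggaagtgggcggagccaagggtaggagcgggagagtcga
Bhlhe41: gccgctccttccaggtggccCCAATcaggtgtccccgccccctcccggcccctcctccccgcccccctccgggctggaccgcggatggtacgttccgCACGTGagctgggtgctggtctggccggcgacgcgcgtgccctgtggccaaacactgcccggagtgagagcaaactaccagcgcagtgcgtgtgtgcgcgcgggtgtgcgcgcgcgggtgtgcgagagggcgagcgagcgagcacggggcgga
Cry1: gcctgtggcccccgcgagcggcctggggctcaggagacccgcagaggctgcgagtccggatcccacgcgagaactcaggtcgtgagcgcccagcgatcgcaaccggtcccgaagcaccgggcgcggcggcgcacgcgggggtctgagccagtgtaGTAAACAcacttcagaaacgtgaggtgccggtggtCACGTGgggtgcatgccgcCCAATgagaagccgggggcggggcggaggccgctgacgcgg
Nfil3: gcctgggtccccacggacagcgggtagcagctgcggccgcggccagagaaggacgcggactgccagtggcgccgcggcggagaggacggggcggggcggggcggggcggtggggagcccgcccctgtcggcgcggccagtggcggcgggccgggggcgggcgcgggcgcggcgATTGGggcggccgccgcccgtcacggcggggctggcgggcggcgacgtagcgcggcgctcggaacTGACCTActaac
Searched on both strands were CACGTG (E-box), TTATGTAA (D-box), TAGGTCA (core of the REV-ERB and ROR element), TCACNCCAC (sterol element), GAANNTTC (heat shock element core), TGACGTCA (cAMP element), GTAAACA (FoxO element) and CCAAT. Bhlhe41 holds CACGTG with its first base 153 bases before the start, and Cry1 holds it at 60 bases, beside GTAAACA at 95 and CCAAT at 41. Nfil3 holds TAGGTCA on the opposite strand, at 12 bases before the start. CCAAT also lies in Bhlhe41, at 230 bases, and in Nfil3, at 77. Nr1d2 holds only CCAAT, at 88 bases, and the Nr1d1 window holds none of the 8.

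Over windows of 300 bases (250 before and 50 after the start), a promoter was available for 12084 tested genes, 139 that rose and 82 that fell. CACGTG was found in 10.8% of all, 12.2% of the risen (95% Wilson interval 7.78 to 18.7) and 14.6% of the fallen genes (8.57 to 23.9). TAGGTCA was found in 2.45% of all, 2.16% of the risen (0.737 to 6.15) and 6.10% of the fallen (2.63 to 13.5), which is 5 genes, Arntl, Nfil3 and Krt8 among them. TGACGTCA was found in 3.03% of all, 6.47% of the risen (3.44 to 11.8) and 4.88% of the fallen (1.91 to 11.9). GTAAACA stood at 3.16%, 4.32% and 4.88%, TCACNCCAC at 1.46%, 2.16% and 2.44%, GAANNTTC at 7.001%, 7.91% and 7.32%, CCAAT at 41.2%, 36.7% and 47.6%, and TTATGTAA at 0.703%, 0 and 1.22%, in the same order. The intervals cover counting error only. The share of all genes lay just under the interval for TAGGTCA in fallen genes and for TGACGTCA in risen genes and within it for the other motifs, and these shares were not adjusted for the number looked at.

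Genes that control lipoprotein lipase, the enzyme that releases fatty acids from circulating lipoproteins, gave the deepest fall of the step. Angptl8, whose protein acts with its relatives as a feeding-induced inhibitor of the lipase, had log2 signals of 11.60, 12.30 and 11.53 at CT19 and of 9.26, 9.50 and 9.35 at CT1. The groups lay far apart, and it fell by 2.44 ± 0.33 on the log2 scale (5.42-fold, adjusted p = 0.000737). Angptl8 lies within Dock6, whose own probe set differed by 0.06 ± 0.08. Angptl4, for a fasting-induced inhibitor of the same lipase, went from 10.85, 10.61 and 11.15 to 11.61, 11.82 and 11.88. It rose by 0.90 ± 0.13 (1.87-fold, adjusted p = 0.00127), without overlap, so the pair changed in opposite directions. Mgll, for the lipase of monoacylglycerol, rose from 11.13, 11.05 and 11.29 to 11.47, 11.46 and 11.48 (0.31 ± 0.08, adjusted p = 0.0304), a call that ended without CT19 replicates 1 (0.1) and 2 (0.165) and each CT1 replicate (0.0886, 0.0621 and 0.131). These 3 were the called members of the 15 tested genes of lipolysis and lipoprotein lipase, 2 higher and 1 lower. The list median was 0.09, and over all genes 1.19% were called higher and 0.676% lower. Lpl itself (0.11 ± 0.07), Gpihbp1, which holds the lipase on capillaries (0.27 ± 0.09), Pnpla2, the first lipase of stored fat (-0.08 ± 0.06), its inhibitor G0s2 (-0.55 ± 0.16), Lipe (0.13 ± 0.06) and Plin1 (0.07 ± 0.06) did not pass.

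Of 5 tested genes for glycogen-targeting subunits of protein phosphatase 1, 2 fell, Ppp1r3c and Ppp1r3b. Over all tested genes 0.676% fell. This family is not among the gene lists, and both genes were already among the largest falls of the step. The share of 2 in 5 is therefore no measure of how the family changed. Ppp1r3c, which brings the phosphatase to glycogen and favours glycogen synthesis, went from 10.59, 10.87 and 10.63 to 9.11, 9.38 and 9.39. It fell by 1.40 ± 0.18 on the log2 scale (2.64-fold, adjusted p = 0.000555), and passed in all 6 omissions. Ppp1r3b, for a second such subunit, went from 9.75, 10.78 and 9.52 to 8.66, 8.76 and 8.84. CT19 replicate 2 was the highest array by a wide gap, yet all CT19 arrays were above all CT1 arrays, and the difference was -1.26 ± 0.25 (2.40-fold, adjusted p = 0.0106). That call ended without CT19 replicate 2 (-0.88, adjusted p = 0.0769) or CT1 replicate 3 (0.0507), and in a fit of the 6 arrays alone (0.0531). Ppp1r3d (-0.35 ± 0.11, adjusted p = 0.0981), Ppp1r3e (0.01 ± 0.08) and Ppp1r3g (0.00 ± 0.09) did not pass. Ppp1r3c holds CACGTG 104 bases and CCAAT 124 bases before its start (chr19:36736605-36736854, minus strand), in the sequence shown here for comparison with Bhlhe41 and Cry1.
Ppp1r3c: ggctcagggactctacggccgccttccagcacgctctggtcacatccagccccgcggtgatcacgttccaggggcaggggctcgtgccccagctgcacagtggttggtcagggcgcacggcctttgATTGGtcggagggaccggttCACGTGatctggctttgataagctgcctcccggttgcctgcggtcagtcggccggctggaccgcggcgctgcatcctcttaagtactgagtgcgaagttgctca

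Of 19 tested genes of insulin signalling and glucose use, these 2 were the falls, and Pck1 and Insr the rises. The list median was -0.05, and of all genes 0.676% fell and 1.19% rose. Pck1, for the enzyme that makes phosphoenolpyruvate and feeds glycerol synthesis in fat, went from 12.23, 11.29 and 12.56 to 13.01, 12.83 and 12.997 (0.92 ± 0.22, 1.89-fold, adjusted p = 0.0316). CT19 replicate 2 was the low array here and the high array for Ppp1r3b. Without it Pck1 differed by 0.55 (adjusted p = 0.19), and the call also ended without CT19 replicate 1 (0.0552) and CT1 replicates 1, 2 and 3 (0.0976, 0.0541 and 0.144). Insr, the insulin receptor gene, rose from 10.52, 10.33 and 10.58 to 10.93, 10.62 and 10.87 (0.33 ± 0.08, adjusted p = 0.0451), and did not pass without CT19 replicates 1 (0.0875) and 2 (0.222) or CT1 replicates 1 (0.177) and 3 (0.202). Irs2 (0.56 ± 0.17), Irs1 (0.38 ± 0.13), Hk2, which traps glucose (-0.43 ± 0.13), Pik3r1 (-0.44 ± 0.14) and Slc2a4, the insulin-responsive glucose transporter (-0.02 ± 0.13), did not pass.

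Genes known to respond to fasting and to FoxO factors lay mostly above 0. Of 17 tested, 3 rose (Angptl4, Cited2 and Fbxo32), none fell and 16 were above 0 (52.9% of all genes were). The list median was 0.19 against 0.01 for all genes, of which 1.19% were called higher and 0.676% lower. Cited2, for a cofactor that binds CBP and p300, went from 11.15, 10.89 and 11.40 to 12.06, 12.002 and 11.95 (0.86 ± 0.16, 1.81-fold, adjusted p = 0.00688). Its CT1 arrays were close together and all above CT19, and the call ended without CT19 replicate 2 (0.059). Fbxo32, for a ubiquitin ligase, rose by 0.37 ± 0.09 (adjusted p = 0.0401), from 8.06, 8.03 and 8.06 to 8.56, 8.48 and 8.23. It passed in 1 of 6 omissions, with adjusted p-values of 0.098, 0.136 and 0.0635 without CT19 replicates 1, 2 and 3 and of 0.167 and 0.104 without CT1 replicates 1 and 2. Txnip (0.38 ± 0.11, adjusted p = 0.062), Pdk4 (0.19 ± 0.14) and Klf15 (0.27 ± 0.10) were not called. None of 14 fatty acid oxidation genes passed in limma's test, and 4 were higher at an unadjusted p under 0.05. Over all genes 16.7% had such a p, 9.85% higher and 6.81% lower. Their median was 0.14, and Ppara (0.40 ± 0.11, adjusted p = 0.062) and Acadl (0.31 ± 0.09, adjusted p = 0.084) were the members farthest above 0.

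Lipid synthesis genes lay mostly below 0. Of 21 genes of fatty acid and triglyceride synthesis 1 fell, none rose and 19 were below 0 (47.1% of all genes were). The list median was -0.16, and of all genes 0.676% fell and 1.19% rose. The fall was Lpin1, for the enzyme that makes diacylglycerol (12.14, 12.37 and 12.004 against 11.66, 11.84 and 11.87, -0.38 ± 0.09, adjusted p = 0.0274). Its groups did not overlap, and the call ended without CT19 replicates 1 (0.0674) and 2 (0.172) or CT1 replicates 1 (0.127) and 3 (0.0731). Srebf1, the transcription factor gene of the pathway, differed by -0.58 ± 0.15 (adjusted p = 0.056), Pnpla3 by -0.58 ± 0.19 (adjusted p = 0.111) and Elovl6 by -0.66 ± 0.33, while Fasn (0.06 ± 0.16) and Scd1 (0.00 ± 0.06) were near 0. Mid1ip1, for an activator of acetyl-CoA carboxylase and outside that list, fell from 10.02, 10.65 and 9.74 to 8.997, 9.47 and 9.04 (-0.96 ± 0.18, 1.95-fold, adjusted p = 0.00891). CT19 replicate 2 was again the high array, and without it the adjusted p was 0.0689 (0.0501 and 0.0665 without CT1 replicates 1 and 3).

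Of 16 cholesterol synthesis genes 2 fell, none rose and 14 were below 0, with a list median of -0.16. Over all genes 0.676% fell, 1.19% rose and 47.1% were below 0. Sc5d, for a late desaturase of the pathway, fell by 0.47 ± 0.12 on the log2 scale (adjusted p = 0.0477) and Srebf2, for the transcription factor that drives it, by 0.26 ± 0.06 (adjusted p = 0.0352). The Srebf2 arrays were 9.81, 9.96 and 9.89 at CT19 and 9.64, 9.63 and 9.63 at CT1, a small but clear separation. Each of these calls held in 1 omission of 6. For Sc5d the adjusted p was 0.091 and 0.257 without CT19 replicates 1 and 2 and 0.0835, 0.0977 and 0.194 without CT1 replicates 1, 2 and 3. For Srebf2 it was 0.17 and 0.0649 without CT19 replicates 2 and 3 and 0.0933, 0.0776 and 0.134 without CT1 replicates 1, 2 and 3.

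Among 8 adipokine genes, Lep alone passed, against 1.86% of all genes. The leptin gene went from 12.91, 12.60 and 12.46 to 12.02, 11.94 and 11.76 (-0.75 ± 0.14, 1.68-fold, adjusted p = 0.00731), with all CT1 arrays below CT19. The call ended without CT1 replicate 3 (0.0634) and with the fibroblast marker score described below as a covariate (0.056). Adipoq, for adiponectin, differed by -0.07 ± 0.07, Retn by 0.05 ± 0.06, Nampt by -0.33 ± 0.11 and Agt by 0.31 ± 0.11. Acvr1c, for ALK7, a receptor known to restrain lipolysis in fat cells, rose from 10.73, 10.34 and 11.07 to 11.50, 11.38 and 11.53 (0.76 ± 0.13, 1.69-fold, adjusted p = 0.00539). It passed in all 6 omissions but not in a fit of the 6 arrays alone (0.0514).

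**Figure D3:**
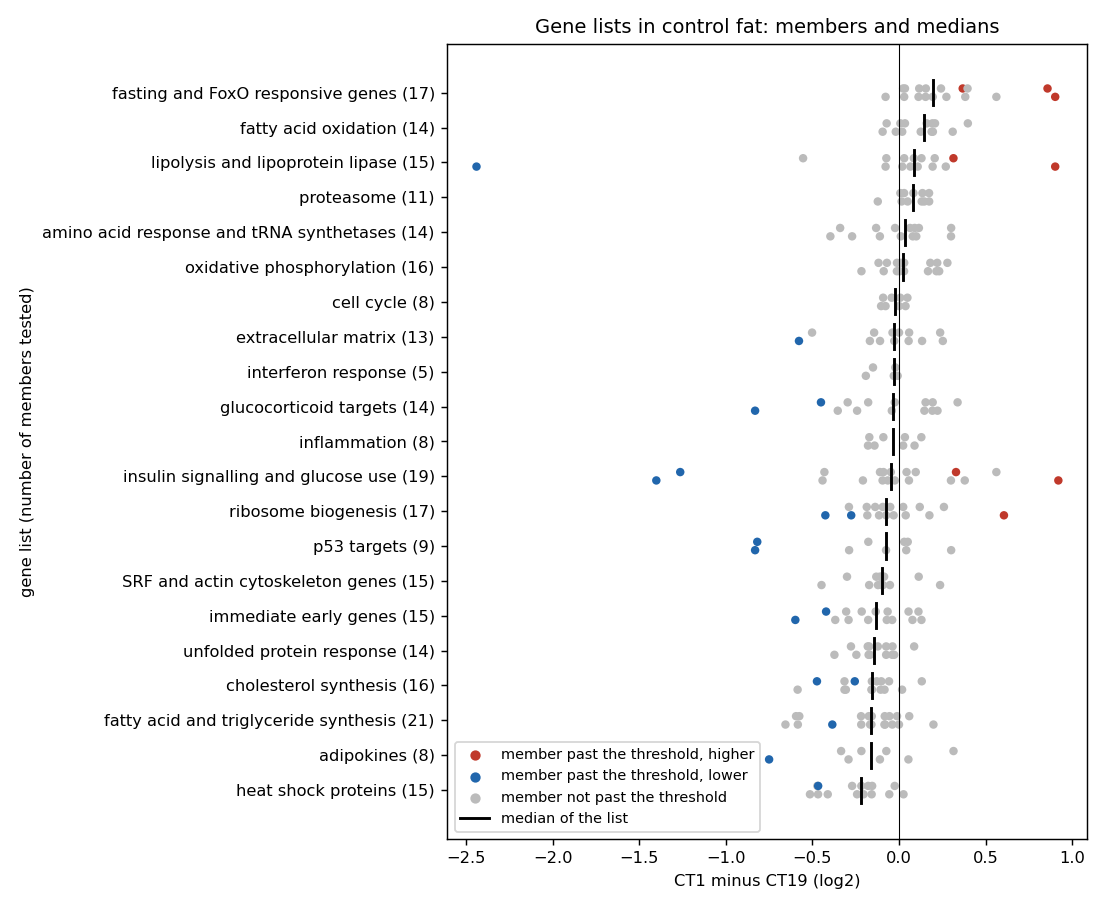
Each dot is a tested member of 1 of 21 gene lists in control fat, placed by CT1 minus CT19 in log2 units (horizontal axis). Lists are ordered by their median (black bar), with the number of members in parentheses. Red and blue dots passed the threshold. The fasting and FoxO list lies highest (median 0.19) and the heat shock proteins lowest (median -0.22).

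Some stress and growth genes were called. Over all tested genes 1.19% rose and 0.676% fell. Cdkn1a, for the cell cycle inhibitor p21 and a member of the p53 and glucocorticoid lists, went from 10.82, 10.87 and 10.91 to 10.05, 10.07 and 9.99. The arrays of each group lay close together, and it fell by 0.83 ± 0.16 on the log2 scale (1.78-fold, adjusted p = 0.00932), with the call lost without CT19 replicate 2 (0.0532) or CT1 replicate 3 (0.0634). None of the searched motifs lies in the 250 bases before the start used here (chr17:29090729-29090978, plus strand). The gene had 2 such windows, and only this window is shown. No p53 or glucocorticoid element was among the motifs searched, so their absence says nothing about such sites. The bases are shown because Cdkn1a was the p53 and glucocorticoid target with the deepest fall.
Cdkn1a: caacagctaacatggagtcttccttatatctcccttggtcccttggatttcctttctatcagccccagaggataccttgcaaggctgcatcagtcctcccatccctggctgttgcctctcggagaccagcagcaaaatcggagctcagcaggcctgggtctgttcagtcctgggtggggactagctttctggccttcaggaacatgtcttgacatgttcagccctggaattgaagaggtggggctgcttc
Phlda3, a p53 target whose protein restrains AKT, went from 11.94, 12.13 and 11.67 to 11.19, 11.13 and 10.97 (-0.82 ± 0.11, adjusted p = 0.000847) and passed in all omissions. They were the only called members of 9 p53 targets. Mdm2 (-0.07 ± 0.09) and Zmat3 (0.04 ± 0.07) were near 0. In the 14 glucocorticoid targets, Tsc22d3, which encodes GILZ, fell with Cdkn1a, from 9.29, 9.43 and 9.55 to 8.85, 9.02 and 9.05 (-0.45 ± 0.08, adjusted p = 0.00519), while Fkbp5 (-0.24 ± 0.12) and Per1 did not pass.

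Hspa8, the constitutive HSC70 chaperone gene, was the 1 called member of 15 heat shock protein genes, at 12.74, 12.73 and 12.53 against 12.28, 12.14 and 12.19 (-0.47 ± 0.07, adjusted p = 0.00213). Another 13 members were below 0, 8 of the 15 were lower and 0 higher at an unadjusted p under 0.05, against 6.81% lower among all genes, and the list median was -0.22. The 14 genes of the unfolded protein response had no call, 5 lower at an unadjusted p under 0.05 (again against 6.81%) and 13 below 0 (median -0.14), with Xbp1 at -0.37 ± 0.10 (adjusted p = 0.053). Cirbp, a cold-induced RNA-binding protein gene, differed by 0.19 ± 0.11. Of 15 immediate early genes 2 fell (0.676% of all genes did). Fosl2, for an AP-1 subunit, went from 10.46, 10.37 and 10.38 to 10.06, 9.97 and 9.91 (-0.42 ± 0.07, adjusted p = 0.00347). Ier3 fell by 0.60 ± 0.12 on the log2 scale (adjusted p = 0.0135), a call lost without CT19 replicates 1 (0.0719) and 2 (0.059) or CT1 replicates 1 (0.0707) and 3 (0.0734). Fos (-0.07 ± 0.09) and Egr1 (0.13 ± 0.12) did not pass.

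Myc, which drives ribosome production, rose from 8.97, 9.01 and 9.12 to 9.75, 9.47 and 9.70 (0.61 ± 0.12, 1.52-fold, adjusted p = 0.0106). In the same list of 17 ribosome biogenesis genes, the nucleolar genes Nolc1 (-0.43 ± 0.11, adjusted p = 0.0468) and Nop16 (-0.28 ± 0.07, adjusted p = 0.029) fell. The Myc call ended without CT19 replicate 2 (0.0592) or CT1 replicates 1 (0.0574) and 3 (0.0731). Nolc1 was lost without CT19 replicates 1 (0.152) and 2 (0.204) or CT1 replicates 1 (0.127) and 3 (0.234). Nop16 was lost without CT19 replicates 1, 2 and 3 (0.0655, 0.129 and 0.0514) and CT1 replicates 1 and 3 (0.0953 and 0.137). Of 13 extracellular matrix genes Fn1, for fibronectin, was the 1 call (-0.58 ± 0.15, adjusted p = 0.0495), which ended without any array but CT1 replicate 2 (0.144, 0.0592 and 0.136 for the CT19 replicates, 0.177 and 0.192 for CT1 replicates 1 and 3). No member passed limma's test among 15 SRF and actin genes, 16 of oxidative phosphorylation, 11 of the proteasome and 14 of the amino acid response and tRNA synthetases, where 2, 1, 2 and 4 members had an unadjusted p under 0.05, against 16.7% of all genes. Among 8 genes of the cell cycle, 8 of inflammation and 5 of the interferon response there was no call and 0 at an unadjusted p under 0.05.

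Other genes among the 12 largest rises and falls were of varied kinds. The long noncoding RNA gene 2010016I18Rik went from 9.14, 9.35 and 9.86 to 10.51, 10.16 and 10.56 (0.96 ± 0.21, adjusted p = 0.0171), and Gm10687, also noncoding, from 9.53, 9.30 and 9.80 to 10.61, 10.12 and 10.54 (0.88 ± 0.15, adjusted p = 0.00468). Unc93a2 rose by 0.93 ± 0.19 (adjusted p = 0.0135), Trp53i11 by 0.85 ± 0.15 (adjusted p = 0.00519) and Adamts12, for a secreted metalloproteinase, by 0.76 ± 0.16 (adjusted p = 0.0124). Mir5125, a miRNA gene within Srrm2, rose by 0.78 ± 0.14 (adjusted p = 0.00704) while the Srrm2 probe set differed by -0.03 ± 0.09, and such a signal can come from precursor or host transcript. In falls, Rny1, a small noncoding Y RNA gene, went from 10.62, 10.55 and 10.62 to 9.79, 9.78 and 9.51 (-0.90 ± 0.16, adjusted p = 0.00583). Lfng, for a glycosyltransferase that modifies Notch, fell by 0.71 ± 0.14 on the log2 scale (adjusted p = 0.00955). All 6 arrays of each of these genes were apart by time. Gm10687 and Trp53i11 passed in all omissions. Rny1 was lost without CT1 replicate 3 (0.0512), Mir5125 without CT19 replicate 2 (0.0532) or CT1 replicate 3 (0.0512), and Unc93a2 without CT19 replicate 2 (0.104) or CT1 replicates 1 (0.0788) and 3 (0.0908). Lfng was lost without CT19 replicates 1 (0.0583) and 2 (0.0626) or CT1 replicate 1 (0.0531), and 2010016I18Rik and Adamts12 without CT19 replicates 1 (0.091 and 0.0505) and 2 (0.0985 and 0.0964) or CT1 replicates 1 (0.0707 and 0.0587) and 3 (0.109 and 0.078).

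By kind of gene, 161 of 14045 protein-coding genes rose (1.15%) and 98 fell (0.698%). Of 957 long noncoding RNA genes 16 rose (1.67%) and 1 fell (0.104%), of 172 miRNA genes 4 rose and none fell, and of 109 pseudogenes none rose and 4 fell. Thra, the thyroid hormone receptor gene that overlaps Nr1d1 on the opposite strand, was called at 0.33 ± 0.08 (adjusted p = 0.0274), and whether the probe sets tell the strands apart is not given in the sources used here.

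No marker score of another cell type passed its test, which could not reach 0.05 with 3 arrays against 3, and the scores are given as values. In bulk tissue, fewer cells of a type and less RNA per cell cannot be told apart. The mesothelium score, the median deviation of 9 markers of the cells that line the fat pad, was 0.26 ± 0.15 (SD, n = 3) at CT19 and -0.28 ± 0.25 at CT1. The 3 arrays lay between 0.10 and 0.40 at CT19 and between -0.58 and -0.14 at CT1, so they did not overlap, and the exact permutation test, two-sided, gave p = 0.1, the smallest value that 3 against 3 allows (0.4 adjusted over 14 marker lists). All 9 markers were below 0 and 1 passed, Krt8, a keratin gene, at 9.70, 9.36 and 9.24 against 8.77, 8.77 and 8.52 (-0.75 ± 0.17, adjusted p = 0.0263). Its call ended without CT19 replicates 1 (0.128) and 2 (0.0819) or CT1 replicates 1 (0.0576) and 3 (0.155). Msln (-0.64 ± 0.32) and Upk3b (-0.50 ± 0.24) were further members below 0.

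The endothelium score was -0.12 ± 0.10 at CT19 and 0.06 ± 0.03 at CT1 (exact permutation p = 0.1, 0.4 adjusted), with 7 of 8 markers above 0. Flt1, for a VEGF receptor (0.32 ± 0.08, adjusted p = 0.0477), and Cdh5, for the cadherin of endothelial junctions (0.26 ± 0.07, adjusted p = 0.045), rose. Flt1 passed in none of the 6 omissions (0.0938, 0.183 and 0.0685 without the CT19 replicates, 0.171, 0.0948 and 0.0907 without the CT1 replicates), and Cdh5 in 1 (0.218 and 0.0856 without CT19 replicates 2 and 3, 0.137, 0.0851 and 0.131 without the CT1 replicates). Cldn5, for the claudin of endothelial tight junctions and outside that list, rose from 9.28, 9.09 and 9.44 to 9.91, 9.97 and 10.04 (0.70 ± 0.12, 1.63-fold, adjusted p = 0.00347) and passed in all omissions. The score differences for fibroblasts and preadipocytes (-0.24), macrophages (-0.23) and skeletal muscle (-0.17) had exact permutation p-values of 0.2, 0.2 and 0.1, and the adipocyte score moved by 0.04.

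With the mesothelium score as a covariate 91 genes rose and 46 fell, and 103 of these 137 were among the 289. With the fibroblast score the numbers were 74 and 28, with 84 of 102 shared. Nr1d1 (2.67 and 2.78), Bhlhe40 (-1.94 and -2.00), Angptl8 (-2.57 and -2.56), Ppp1r3c (-1.40 and -1.40), Angptl4 (0.997 and 0.94), Cldn5 (0.78 and 0.79) and Phlda3 (-0.79 and -0.84) stayed past the threshold with either score. Krt8 is itself a marker in the mesothelium score, so its adjustment for that score is partly an adjustment for itself. The mesothelium score ended 16 of the 46 named calls and the fibroblast score 20. Both ended those of Krt8 (-0.42, adjusted p = 0.106, and -0.67, adjusted p = 0.13), Fn1 (-0.36, 0.212, and -0.38, 0.278), Arntl (-0.62, 0.0666, and -0.58, 0.121), Ier3 (-0.44, 0.0744, and -0.41, 0.127), Wee1 (-0.45, 0.11, and -0.53, 0.111), 2010016I18Rik, Adamts12, Cdh5, Fbxo32, Flt1, Insr, Mgll, Nolc1, Nop16 and Unc93a2. The mesothelium score alone ended that of Srebf2 (-0.26, adjusted p = 0.0771). The fibroblast score alone ended those of Lep (-0.65, adjusted p = 0.056), Rny1 (-0.68, 0.0566), Pck1 (1.02, 0.0733), Lpin1 (-0.40, 0.0904) and Myc (0.51, 0.0951). The part of these cell types in the other results was not tested. A fit of the 6 arrays alone ended 17 named calls, those of Acvr1c, Cdh5, Fbxo32, Flt1, Fn1, Insr, Lpin1, Mgll, Mid1ip1, Nolc1, Nop16, Pck1, Ppp1r3b, Sc5d, Srebf2, Unc93a2 and Wee1.

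The control means at CT7 and CT13 place the step within the day. CT1 and CT19 chose these genes, so their order at those times is a description. Of the 184 risers, 132 had their highest mean at CT1 and 52 at CT7, and 125 had their lowest at CT19 and 58 at CT13. Of the 105 fallers, 91 were highest at CT19, and their lowest mean was at CT1 in 51 and at CT7 in 52. Cldn5 was at 9.97 ± 0.07 (SD) at CT1 and between 9.25 and 9.35 at CT7, CT13 and CT19, so it stood out at CT1 alone. Trp53i11 had the same form, with 11.43 at CT1 and 10.58 to 10.66 at the other times. Nr1d2 rose further to 10.37 ± 0.05 at CT7, and 2010016I18Rik to 10.9998 ± 0.11. Cdkn1a continued down to 9.20 ± 0.23 at CT7. Bhlhe40, Bhlhe41, Wee1 and Usp2 were lowest at CT1. At CT7 Bhlhe40 was at 9.66 ± 0.09, still under its CT19 mean of 10.82. Bhlhe41 was at 9.17 ± 0.27 at CT7, near its CT19 mean of 9.15. Wee1 and Usp2 were at 8.24 ± 0.11 and 9.63 ± 0.24 at CT7, above their CT19 means of 8.12 and 9.44.

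**Figure D4:**
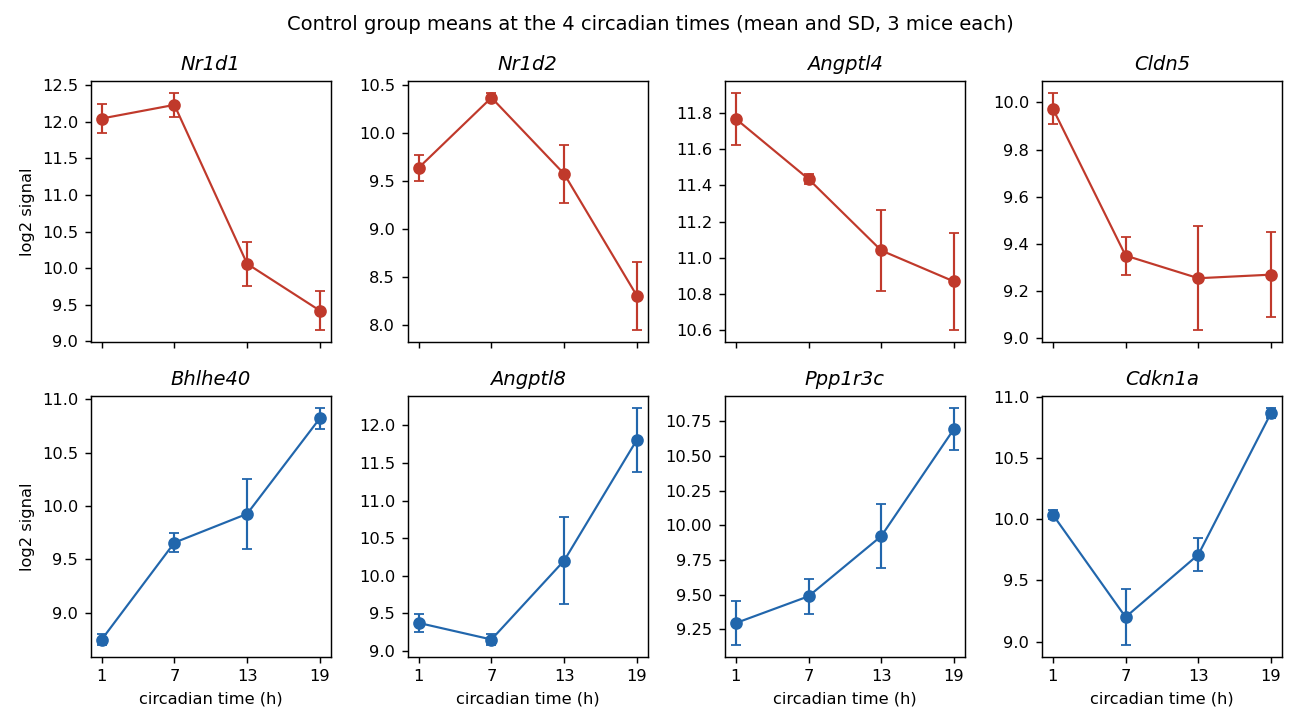
Control mean log2 signal with SD (vertical axis, a separate scale per gene, 3 mice per point) at CT1, CT7, CT13 and CT19 (horizontal axis, h) for 4 genes that rose (red) and 4 that fell (blue) between CT19 and CT1. Cldn5 is high at CT1 only, Nr1d2 peaks at CT7, Bhlhe40 is lowest at CT1 and Cdkn1a at CT7.

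The neighbouring control steps differed in size. From CT1 to CT7, 191 genes were called (1.23%), 38 higher and 153 lower. From CT7 to CT13 there were 950 (6.12%), 467 higher and 483 lower, and from CT13 to CT19 61 (0.393%), 45 higher and 16 lower. Neighbouring steps share arrays, and their counts are given side by side only.

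In MUT mice the same step, measured in other arrays, gave 10 calls (0.0644%), 5 higher and 5 lower, with 1768 genes (11.4%) at an unadjusted p under 0.05 against 2587 in CON. The MUT calls higher at CT1 were Klf15, Cox5b, Mir365-2, Olfr122 and Ppp1r3c, and those lower Arhgap20, Gbp9, Pdk4, Plek and Rnf125. The 184 genes that rose in CON were above 0 in MUT in 84 cases (45.7%, against 53.1% of all genes), with a median of -0.01. The 105 that fell were below 0 in 49 (46.7%), with a median of 0.01. The MUT counts were 0 higher and 1 lower without MUT CT1 replicate 1, 15 and 8 without CT1 replicate 2, 0 and 0 without CT1 replicate 3, 1 and 0 without CT19 replicate 1, 0 and 0 without CT19 replicate 2, and 7 and 9 without CT19 replicate 3. Only Ppp1r3c was called in both steps, and in opposite directions, by -1.40 in CON and 0.97 ± 0.18 in MUT (adjusted p = 0.0491). No clock gene was called in the MUT step by limma's test, and 12 of the 20 had an unadjusted p under 0.05 there, against 11 in CON. Arntl was the clock gene called in CON with the most similar value in MUT (-0.66 ± 0.14, adjusted p = 0.0884).

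The steps themselves differed between genotypes in 89 genes, 47 with the CON step above the MUT step (0.303%) and 42 with it below (0.271%), and 58 of them were also called in CON. Nr1d1 differed by 2.56 ± 0.24 (adjusted p = 5.57e-06), with 0.06 ± 0.17 in MUT. Bhlhe40 differed by -2.93 ± 0.31 (adjusted p = 1.7e-05), with 0.86 ± 0.22 in MUT, Angptl8 by -3.39 ± 0.47 (adjusted p = 0.000664), with 0.95 ± 0.33 in MUT, and Ppp1r3c by -2.37 ± 0.26 (adjusted p = 2.55e-05). Angptl4 differed by 1.498 ± 0.19 (adjusted p = 0.000239), with -0.60 ± 0.13 in MUT, and Cldn5 by 1.23 ± 0.16 (adjusted p = 0.000404), with -0.53 ± 0.12. Nr1d2 (0.92 ± 0.27, adjusted p = 0.123), Arntl (0.07 ± 0.20, adjusted p = 0.911) and Cdkn1a (-0.74 ± 0.23, adjusted p = 0.144) did not pass this test. Without CON CT19 replicate 2 the counts of differing steps were 10 above and 19 below, without CON CT19 replicate 3 they were 74 and 50, without CON CT1 replicates 1 and 3 17 and 26 and 13 and 20. Without MUT CT1 replicates 1, 2 and 3 they were 15 and 20, 58 and 67, and 15 and 21. Without MUT CT19 replicates 1 and 2 they were 19 and 24, and 18 and 29. They were 44 and 44 without CON CT19 replicate 1, and 33 and 33 without CON CT1 replicate 2. Without MUT CT19 replicate 3 they were 33 and 31.

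At pathway level the list medians of the 2 genotypes lay on opposite sides of 0 for fasting and FoxO genes (0.19 in CON and -0.14 in MUT), fatty acid and triglyceride synthesis (-0.16 and 0.30) and cholesterol synthesis (-0.16 and 0.20). These lists were not particular in this. Heat shock proteins (-0.22 and 0.10), the unfolded protein response (-0.14 and 0.10), adipokines (-0.16 and 0.08) and further lists did the same. SRF and actin genes (-0.10 and -0.04) and the proteasome (0.08 and 0.04), among others, did not. This is a description of medians and was not tested. The mesothelium markers were below 0 in both genotypes, with a MUT median of -0.44.

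**Figure D5:**
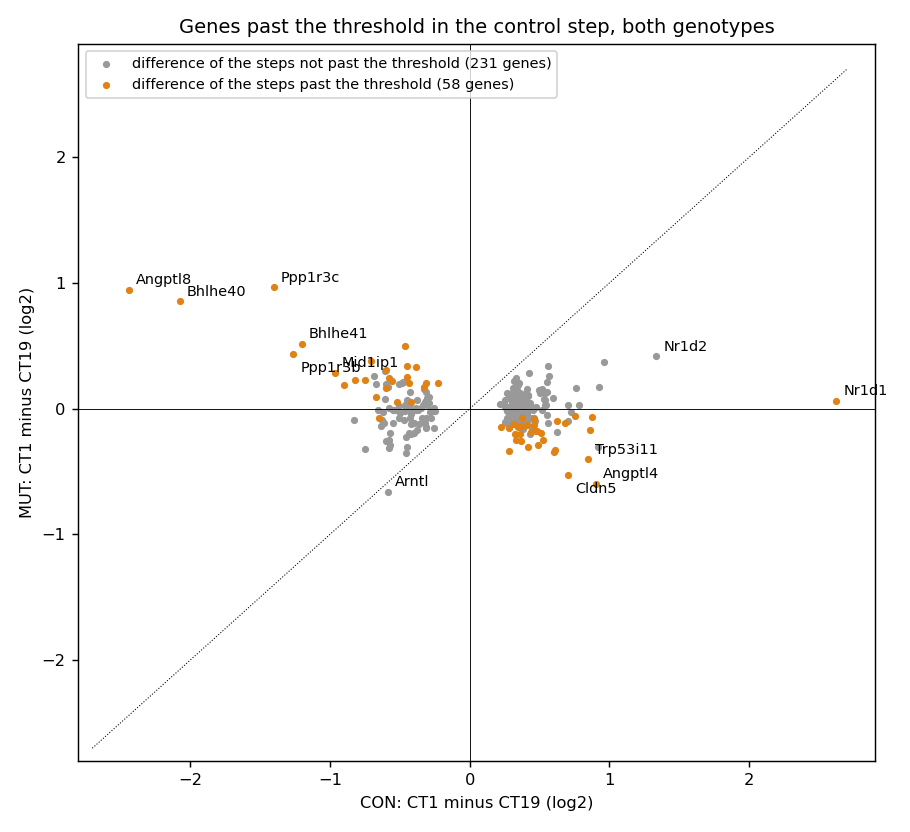
CT1 minus CT19 in CON (horizontal axis) and in MUT (vertical axis), in log2 units, for the 289 genes called in CON. The dotted line marks equal steps, and orange marks the 58 genes whose steps differ at an adjusted p under 0.05. Arntl lies near the line, Nr1d1 near 0 in MUT, and Angptl8, Bhlhe40 and Ppp1r3c on opposite sides of 0.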

How the data were processed

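RNA from eWAT of 24 mice was labelled with biotin and read on Affymetrix GeneChip arrays, 1 per mouse. The authors deposited a log2 signal for each probe set, made with RMA and Affymetrix Expression Console, per the submitters' processing notes. No version, setting or genome build is given for these steps in the sources used here. RMA shrinks low signals towards the background, so fold changes of dim genes may be understated.

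Of 34390 probe sets, 23521 carried 1 gene symbol, 1814 several and 9055 none; only the first were used. Symbols were updated through Entrez identifiers to the GRCm38.p6 annotation, and 193 found no match. The brightest probe set was taken for each of 22180 genes, and those with a mean signal under the 30th percentile (7.42) were not tested. A cell-means model of all 24 arrays (16 residual degrees of freedom) was fitted with limma 3.58.1 in R 4.3.3, with Benjamini-Hochberg adjustment over all genes and a threshold of 0.05, and the code was tested on simulated data. Marker scores were compared by exact permutation. The labels call each array a separate mouse. Figures used Python 3.11.15 and matplotlib 3.10.9.

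Named genes were the clock lists, the 12 largest called rises and falls, up to 4 called members of each other list and the 6 largest called differences of steps in each direction. Further members are given as examples chosen after their values were seen. The members and lists were chosen with earlier results of these data known, and counts over lists are descriptions. Alternatives covered normalization, filters, probe set choice, variance models, arrays fitted, marker covariates, title letters as a block and each array left out.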

Additional observations from a re-analysis of the deposited data

Results flagged for a closer look

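The naming rule given with the processing chose 46 genes called in the CON step and 13 not called in it. Of these, 28 had steps from CT19 to CT1 that differed between the genotypes at an adjusted p under 0.05. This is limma's test of the difference (CON step minus MUT step, log2). Some of these genes were named because this difference was called and large, others for a called CON step, which is part of it. The count of 28 is therefore no measure of how often steps differed. Over all 15526 genes 89 differed, 0.303% with the CON step above and 0.271% with it below. In 10 of the 28 the CON step lay above the MUT step. They were Nr1d1 (2.56), Zim1 (1.55), Angptl4 (1.498), Trp53i11 (1.25), Cldn5 (1.23), Cited2 (1.03), Gm10687 (0.95), Myc (0.95), Acvr1c (0.82) and Fbxo32 (0.63). In 18 it lay below, namely Angptl8 (-3.39), Bhlhe40 (-2.93), Ppp1r3c (-2.37), Bhlhe41 (-1.72), Ppp1r3b (-1.70), Pnpla3 (-1.38), Mid1ip1 (-1.25), Rny1 (-1.09), Lfng (-1.09), Phlda3 (-1.05), Lep (-0.98), Usp2 (-0.91), Tsc22d3 (-0.79), Wee1 (-0.78), Ier3 (-0.76), Lpin1 (-0.72), Cry1 (-0.57) and Fosl2 (-0.47).

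The difference passed in all 12 omissions of a CON or MUT array, and under each other alternative run, for 13 of the 28: Angptl4, Angptl8, Bhlhe40, Cldn5, Lfng, Lpin1, Myc, Nr1d1, Phlda3, Ppp1r3c, Trp53i11, Tsc22d3 and Usp2. Acvr1c passed in 1 omission, Wee1 in 2, and Cited2, Cry1 and Gm10687 in 3 each. Pnpla3, which encodes a lipid droplet protein, was called in neither step alone (-0.58 ± 0.19 in CON and 0.79 ± 0.19 in MUT). Zim1, an imprinted zinc finger gene, was also called in neither (0.46 ± 0.25 in CON and -1.09 ± 0.25 in MUT). Among genes named only as examples, the difference also passed for Txnip (0.92), Pdk4 (0.93), Gbp9 (0.85), Rnf125 (0.84), Hk2 (-0.97) and G0s2 (-1.18).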

How the results depend on the processing

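None of the 46 named calls changed direction under any alternative run. Of the named genes without a call, Tef (0.03) turned to -0.03 without CT19 replicate 2 and to -0.02 without CT1 replicate 3. Against 184 rises and 105 falls in CON, the counts were 494 and 326 with array weights, 74 and 28 with the fibroblast score and 91 and 46 with the mesothelium score as a covariate, 114 rises from the 12 CON arrays, 59 and 74 from the 6 arrays alone, 22 and 28 at 1.5-fold or more, and 17 to 278 and 20 to 107 with an array left out. Array weights kept all 289 genes among 820. For MUT (5 and 5) they were 74 and 60 with array weights, 1 and 0 after a shift to the same median, 8 falls after cyclic loess, 1 and 0 with the fibroblast and 0 and 0 with the mesothelium score, 8 and 8 at the 60th percentile filter, 2 and 1 with the mean probe set, 1 and 0 with no filter, 3 falls from the 12 arrays, 15 and 20 from the 6, 3 and 3 with the replicate block, 3 rises after quantile normalization or with trended variance, and 0 to 15 and 0 to 9 with an array left out. For the difference (47 and 42) they were 171 and 131 with array weights, 79 and 76 with the mesothelium score, 30 above at 1.5-fold or more, and 10 to 74 and 19 to 67 with an array left out. The causes were not tested. With the letters of the titles as a replicate block 175 genes rose and 94 fell in CON, 258 of them among the 289. Same-letter CT1 and CT19 arrays of CON correlated at 0.0874 to 0.201 and others at -0.171 to 0.00137, so each same-letter pair lay above every other pair. In MUT the same-letter pairs lay at 0.0821 to 0.208 and the others at 0.0767 or less. Between CON and MUT at CT1 the same-letter pairs lay at 0.106, -0.0929 and -0.0477. Not every CON pair passed 0.1, and the main fit did not use the letters to pair mice. What the letters share was not tested. Of the 46 named calls, 16 held in every setting run other than the 1.5-fold threshold. At 1.5-fold or more, 31 of the 46 remained and 15 were lost. Beside the marker scores and the fit of 6 arrays, a shift to the same median and no filter each ended 7, the fit of 12 arrays 9, the replicate block 2 (Fn1 and Sc5d), trended variance 2 (Fn1 and Pck1), quantile normalization 2 (Lpin1 and Sc5d), cyclic loess 1 (Sc5d) and the mean probe set 1 (Fn1).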
